A study of Mus musculus with 18 samples.

Results

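The genes described here are 34 genes of pyruvate entry into mitochondria, the tricarboxylic acid (TCA) cycle, glutamine and glutamate use and the mitochondrial carriers that serve them, out of the 11243 genes of the deposited count table. They were chosen by function, with earlier results of these data known, from a list of symbols. All 34 symbols were in the table, and the succinate dehydrogenase subunits were not on that list. RAW264.7, a mouse macrophage line, was used to ask how LPS, a bacterial product that activates macrophages, changes total and translated mRNA and how much of this is sensitive to torin1, an inhibitor of the kinase mTOR. Control cells were given the vehicle DMSO, for a time that the labels do not state. LPS cells were given 500 ng/mL LPS of Salmonella enterica for 6 h. LPS with torin1 cells were given 100 nM torin1 15 min ahead of the same LPS for 6 h, and no torin1 library without LPS was used here. Each treatment was run in 3 independent experiments, and all 9 lysates were sequenced both as total mRNA and as mRNA of heavy polysomes (bound by several ribosomes), giving 18 libraries. Libraries held 27800983 to 47725557 counts.

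In textbook biology, pyruvate made by glycolysis is carried into the mitochondrion and turned into acetyl-CoA by the pyruvate dehydrogenase complex, which kinases switch off and phosphatases switch on. The cycle oxidises acetyl-CoA, while glutamine feeds it through glutamate, and carriers of the inner membrane exchange its acids with the cytosol. Macrophages activated by LPS are known for a rewired cycle, in which citrate and succinate are drawn off for lipid, itaconate and signalling.

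All 8 macrophage markers looked at were in the table, with Lyz2 the most abundant, and summed to 12666 ± 379.7 CPM (counts scaled to library size with TMM factors within each RNA type; mean ± SD, n = 3) in control total mRNA, 13877 ± 865 with LPS and 11975 ± 543 with LPS and torin1. Behind this sum single markers moved apart, with Csf1r at 2443, 1284 and 879.8 CPM on average in control, LPS and LPS with torin1, Cd14 at 1184, 3395 and 3254 CPM and Itgam at 161, 712 and 640.0 CPM. Of the 6 LPS response genes looked at, 4 were in the table (Ptgs2, Tnf, Il1b and Cxcl2), and they summed to 347 ± 46.5, 12313 ± 1314 and 7248 ± 521 CPM. The T cell, B cell, fibroblast and epithelial markers looked at were not in the table, from which the authors had removed genes with 0 counts in any library.

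Among the 34 genes, levels in control total mRNA ran from 0.105 ± 0.0299 CPM per kb for Pdk2 to 102 ± 11.4 CPM per kb for Mdh1 (per kb of annotated exon, mean ± SD, n = 3). Exon lengths were taken from a GENCODE annotation, which may differ from the annotation used for counting. After Mdh1 came Glud1 (89.4 ± 8.94 CPM per kb), Cs (79.8 ± 4.31), Idh1 (79.1 ± 14.3) and Idh2 (75.0 ± 5.86), which do not stand apart from their neighbours beyond their spread. The lowest levels after that of Pdk2 were those of Pcx (1.54 ± 0.475 CPM per kb), Mpc2 (2.82 ± 0.120) and Pdp1 (3.24 ± 0.340). The place of Mpc2 depends on the length used, which counts all annotated exons (7344 bases for Mpc2, 2082 for Mpc1). Without length Mpc2 was above Mpc1 (20.7 ± 0.879 and 10.6 ± 1.01 CPM). All but Pdk2 had at least 10 counts in every library.

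The 34 genes together took 0.530%, 0.550% and 0.553% of all counts in the control total mRNA libraries of experiments 1, 2 and 3. With LPS they took 0.386%, 0.393% and 0.433%, and with LPS and torin1 0.386%, 0.378% and 0.390%. In polysome-associated mRNA the shares were 0.501%, 0.488% and 0.518% in control, 0.347%, 0.342% and 0.422% with LPS, and 0.392%, 0.352% and 0.401% with LPS and torin1. In both RNA types all 3 control libraries were above the 6 libraries with LPS, and the libraries with and without torin1 overlapped. On the TMM scale, which sets the bulk of genes level between libraries, the distance was smaller: the 34 genes summed to 4670.3 ± 166 CPM in control total mRNA, 4465 ± 178 CPM with LPS and 4057 ± 87.0 CPM with LPS and torin1. The corresponding sums in polysome-associated mRNA were 4329 ± 192, 4075 ± 431 and 4022 ± 274 CPM, with overlap of the 3 groups. These are bulk samples, in which fewer cells expressing a gene and less of its mRNA per cell cannot be told apart.

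With LPS against control in total mRNA, 3 of the 34 genes were higher, beside 32.2% of all genes, and 12 were lower, beside 34.3% of all genes (edgeR's quasi-likelihood test, false discovery rate, FDR, of 0.25, the threshold in the study's methods). Called in either direction were 44.1% of the 34 and 66.5% of all genes. Their median log2 fold change was −0.07, beside −0.02 for all genes, and their values ran from −1.64 to 0.59. In polysome-associated mRNA, 2 were higher, beside 26.4% of all genes, and 7 were lower, beside 28.7% of all genes. Their median was −0.10, beside −0.03 for all genes, with a range of −2.51 to 0.46. Every called gene moved the same way in all 3 experiments, 15 in total and 9 in polysome-associated mRNA. These signs come from the same libraries as the calls and are no separate check of them. With the experiment as a block, 11 genes in place of 7 were lower in polysome-associated mRNA, where the share of all genes lower went to 33.0%. Without experiment 3 only 1 gene was higher in total mRNA. Without experiment 1 the counts in polysome-associated mRNA were 0 higher and 4 lower, and without experiment 3 they were 0 and 6. All genes called in polysome-associated mRNA also varied between these fits (given below), and shares by direction are not given. These counts are therefore not read as particular to the 34 genes.

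The scale bears on these directions. Scaled by library totals alone, a choice made after seeing the data, the median of all genes with LPS moved to −0.38 in both RNA types, and that of the 34 genes to −0.44 in total and −0.45 in polysome-associated mRNA. Of all genes called in total mRNA, 48.4% were higher with TMM and 19.8% with total counts, and in polysome-associated mRNA the shares were 47.9% and 20.1%. With total counts 1 of the 34 genes (Dld) was higher and 32 lower in total mRNA, where 62.0% of all genes were lower, and 0 were higher and 29 lower in polysome-associated mRNA, where 54.3% of all genes were lower. Changes with LPS are therefore given relative to the bulk of genes.

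**Figure D1:**
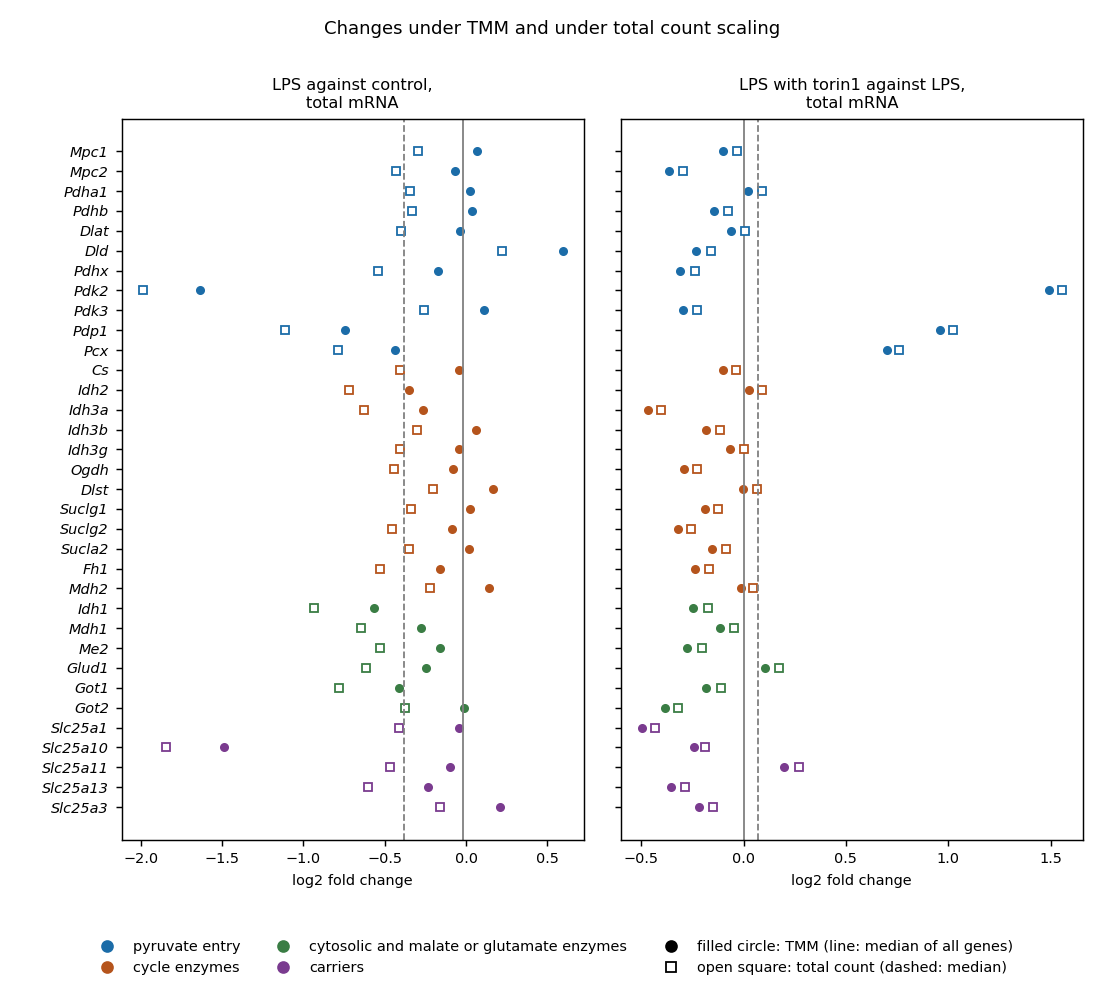
Log2 fold change of each of the 34 genes in total mRNA (one axis) with TMM and with total count scaling, for LPS against control and for LPS with torin1 against LPS. With LPS, total counts shift the genes downward as they shift the median of all genes (−0.02 to −0.38), and 10 genes turn from positive to negative, Dlst and Slc25a3 of the called ones among them, while with torin1 the median of all genes moves only from 0.00 to 0.07.

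The comparison of LPS with torin1 against LPS uses the same LPS libraries as the comparison with control, so a gene's changes in them are not independent and are given side by side only. In total mRNA, 4 of the 34 genes were higher with torin1, beside 27.3% of all genes, and 17 were lower, beside 26.4% of all genes. That is 61.8% of the 34 and 53.7% of all genes in either direction. Their median log2 fold change was −0.18, beside 0.00 for all genes, with a range of −0.50 to 1.49. In polysome-associated mRNA, 3 were higher, beside 20.3% of all genes, and 2 were lower, beside 18.2% of all genes, and the median was −0.06 (0.00 with total counts), beside −0.00 for all genes. With the experiment as a block, 5 were higher and 7 lower in polysome-associated mRNA, beside 25.4% and 24.3% of all genes. With total counts 10 genes in place of 17 were lower in total mRNA, beside 20.8% of all genes. Without experiment 2 only 2 genes were higher in total mRNA, and without experiment 3 the counts were 2 higher and 9 lower. In polysome-associated mRNA the lower genes numbered 0 without experiment 1, 4 without experiment 2 and 0 without experiment 3. All genes called also varied between these fits in both RNA types (given below), so such counts are not read as particular to the 34 genes.

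**Figure D2:**
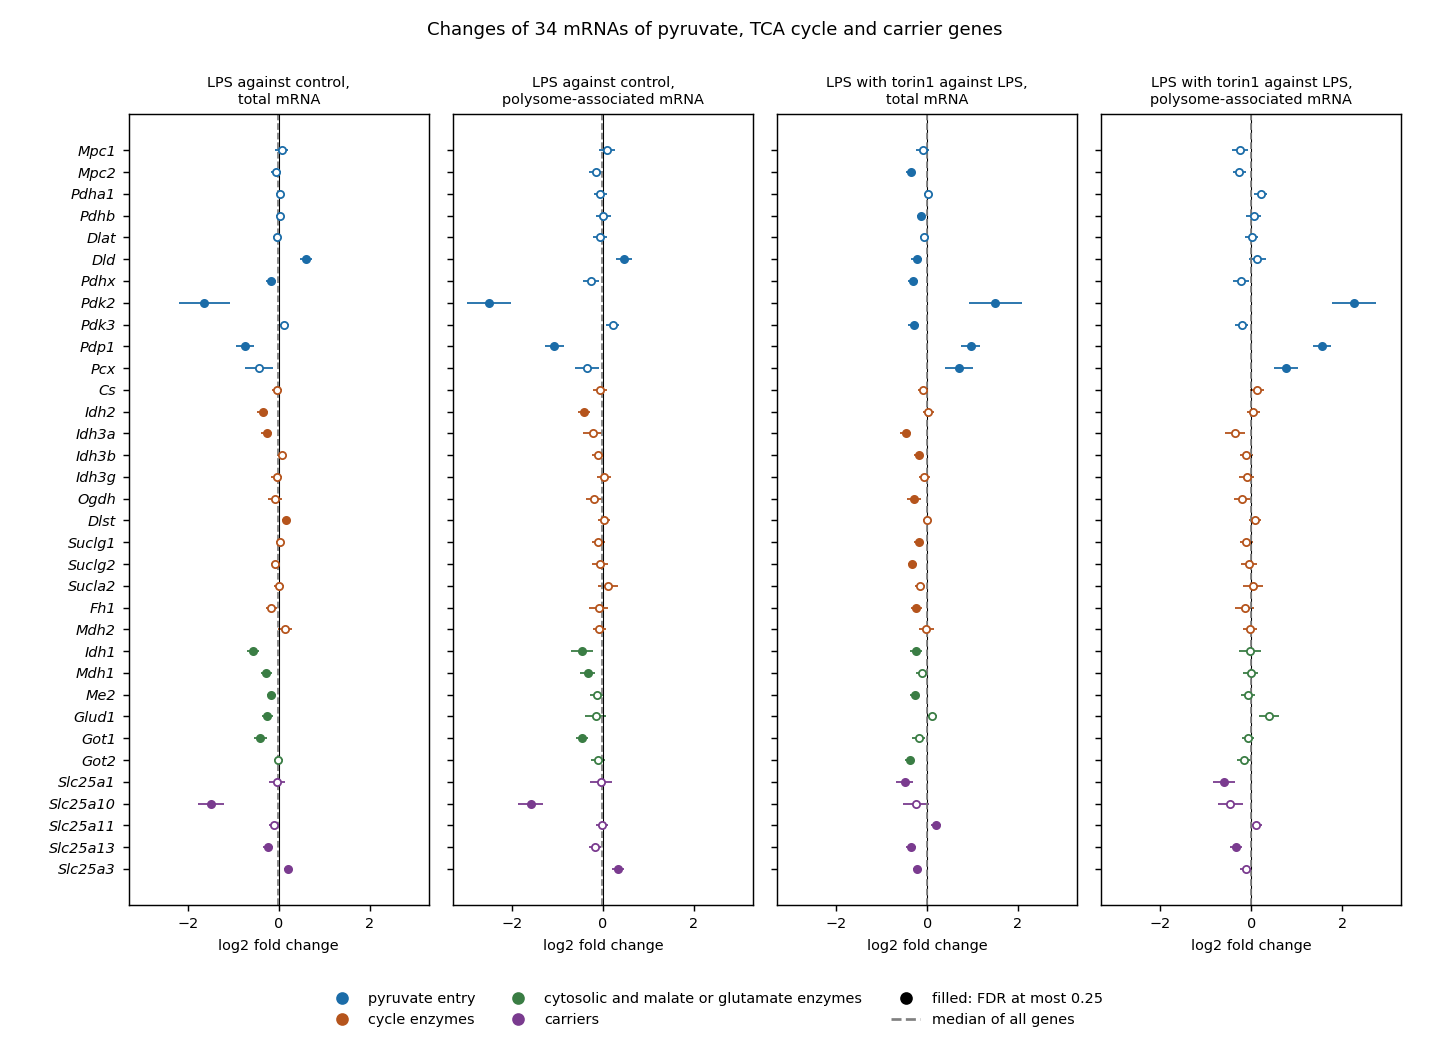
Log2 fold change of the 34 genes, grouped by role, in total and polysome-associated mRNA, for LPS against control and LPS with torin1 against LPS (points, fitted values; bars, standard errors; filled points, called at an FDR of 0.25; dashed lines, median of all genes). Pdk2, Pdp1 and Slc25a10 lie farthest from 0 with LPS (−1.64, −0.74 and −1.49 in total mRNA), and Pdk2 and Pdp1 lie on the other side of 0 with torin1 (1.49 and 0.96).

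Of the 11 genes of pyruvate entry, 4 were called with LPS in total mRNA (1 higher, 3 lower; all genes 66.5%) and 3 in polysome-associated mRNA (1 higher, 2 lower; all genes 55.1%). With torin1 8 were called in total mRNA (3 higher, 5 lower; all genes 53.7%) and 3, all higher, in polysome-associated mRNA (all genes 38.4%). Mpc1 and Mpc2 together form the carrier that brings pyruvate across the inner membrane. Mpc1 had 9.60, 11.6 and 10.7 CPM in control total mRNA of experiments 1, 2 and 3, 9.99, 12.2 and 11.1 CPM with LPS and 9.77, 9.88 and 11.5 CPM with LPS and torin1. Its polysome-associated levels were 16.8, 16.8 and 21.9 CPM, 19.2, 20.8 and 19.2 CPM, and 13.5, 18.3 and 18.1 CPM. The 3 groups of Mpc1 overlapped in total mRNA, and its values are uncertain, since 23.1% of its exon bases lie opposite an exon of 4930506C21Rik and a pseudogene, Mpc1-ps, is annotated. Mpc2 had 21.3, 21.2 and 19.7 CPM in control total mRNA, 20.3, 19.3 and 19.9 CPM with LPS and 16.3, 15.9 and 14.01 CPM with LPS and torin1. All 3 torin1 libraries were below the other 6. Mpc2 fell with torin1 by a log2 fold change of −0.36 (SE 0.11, adjusted p = 0.0268 by edgeR's quasi-likelihood test with Benjamini-Hochberg adjustment), and in polysome-associated mRNA its torin1 libraries (19.4, 19.7 and 17.8 CPM) were also below those with LPS alone (22.6, 23.1 and 22.7 CPM), with a difference that did not pass the test (−0.26, SE 0.15, adjusted p = 0.253). It passed with the block (0.207), with DESeq2 and its size factors, and without experiment 2 (adjusted p between 0.207 and 0.713 over all alternatives).

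Dld encodes the dihydrolipoamide dehydrogenase that the pyruvate, oxoglutarate and branched-chain ketoacid dehydrogenase complexes share, and it rose most of the 34 genes with LPS. In total mRNA it had 165, 139.5 and 162 CPM in control, 271, 218 and 214 CPM with LPS and 220.0, 183 and 195 CPM with LPS and torin1. Among polysome-associated mRNA its values were 128.7, 114.3 and 115.8 CPM in control, 177, 147 and 171 CPM with LPS and 209.8, 132 and 199.8 CPM with LPS and torin1. Every LPS library was above every control library in both RNA types, and torin1 libraries were spread on both sides of the LPS ones in polysome-associated mRNA. The log2 fold change with LPS was 0.59 (SE 0.13) in total and 0.46 (SE 0.18) in polysome-associated mRNA (adjusted p = 0.00315 and 0.0763 by edgeR's quasi-likelihood test with Benjamini-Hochberg adjustment). The call in polysome-associated mRNA was lost without experiment 1 (log2 fold change 0.47) and without experiment 3 (0.42), with edgeR's Benjamini-Hochberg adjusted p between 0.0189 and 0.351 over the 3 fits that leave out 1 experiment, and it was also lost with total counts. With torin1 Dld fell by a log2 fold change of −0.23 in total mRNA (SE 0.13, adjusted p = 0.191, same test), a call lost without each of the 3 experiments (−0.28 to −0.19, adjusted p = 0.303 to 0.359) and with total counts.

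The other subunits of the pyruvate dehydrogenase complex moved less than Dld with LPS. Pdha1 and Pdhb encode the subunits of its E1 part, Dlat its E2 part and Pdhx the protein that holds the E3 part, Dld, in the complex. With LPS, log2 fold changes in total mRNA were 0.02 for Pdha1, 0.03 for Pdhb and −0.04 for Dlat, and these genes were not called. Pdhx had 70.7, 59.1 and 66.0 CPM in control total mRNA, 63.2, 52.8 and 57.9 CPM with LPS and 49.8, 41.1 and 49.4 CPM with LPS and torin1, and on polysomes 71.0, 61.2 and 74.1 CPM, 57.3, 47.4 and 66.6 CPM, and 56.4, 40.8 and 49.8 CPM. Pdhx fell by a log2 fold change of −0.17 with LPS (SE 0.11, adjusted p = 0.247 by edgeR's quasi-likelihood test with Benjamini-Hochberg adjustment), with overlapping groups, and this call was lost without each of the 3 experiments (−0.18 to −0.16, adjusted p = 0.257 to 0.498) and with DESeq2. With torin1 Pdhx fell to 46.8 ± 4.95 CPM in total mRNA, by a log2 fold change of −0.31 (SE 0.12, adjusted p = 0.0684, same test), a call kept without each experiment. Pdhb had 90.9, 102.3 and 98.3 CPM in control total mRNA, 100.6, 100.9 and 97.0 CPM with LPS and 89.002, 91.1 and 90.3 CPM with LPS and torin1, and on polysomes 75.8, 90.3 and 81.8 CPM, 79.2, 76.5 and 92.7 CPM, and 92.2, 68.4 and 97.9 CPM. Its torin1 libraries of total mRNA were below all LPS libraries. Pdhb also fell with torin1 in total mRNA, by a log2 fold change of −0.14 (SE 0.09, adjusted p = 0.237, same test), a call lost without each of the 3 experiments (−0.16 to −0.13, adjusted p = 0.409 to 0.449) and with total counts. Pdha1 is uncertain, since 16.1% of its exon bases lie opposite Map3k15.

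Pdk2 and Pdk3 encode kinases that switch off pyruvate dehydrogenase, and Pdp1 the catalytic subunit of the phosphatase that switches it on. Pdk2 was scarce, with 8, 19 and 11 counts in control total mRNA, 1, 5 and 4 counts with LPS and 7, 6 and 14 counts with LPS and torin1. On polysomes its values were 46, 32 and 26 counts, 5, 6 and 3 counts, and 17, 32 and 28 counts. These counts correspond to 0.243, 0.431 and 0.322 CPM, 0.0355, 0.150 and 0.124 CPM, and 0.230, 0.202 and 0.488 CPM in total mRNA. All LPS libraries were below all others in both RNA types. In polysome-associated mRNA Pdk2 had 1.05, 0.721 and 0.489 CPM in control, 0.161, 0.153 and 0.0778 CPM with LPS and 0.438, 0.833 and 0.620 CPM with LPS and torin1. It fell with LPS by a log2 fold change of −1.64 (SE 0.56) in total and of −2.51 (SE 0.48) in polysome-associated mRNA (adjusted p = 0.0353 and 0.00264 by edgeR's quasi-likelihood test with Benjamini-Hochberg adjustment). With torin1 it rose by 1.49 (SE 0.58) and by 2.26 (SE 0.49; adjusted p = 0.0795 and 0.0141, same test). At this depth the sizes of these folds are loose, and in total mRNA the call with torin1 was lost without experiment 3 (1.13, with edgeR's Benjamini-Hochberg adjusted p between 0.0969 and 0.395 over the 3 fits that leave out 1 experiment).

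Pdk3, in contrast to Pdk2, was at 12.6 ± 0.710 CPM per kb in control total mRNA, where Pdk2 was at 0.105 ± 0.0299 CPM per kb. It had 31.04, 34.3 and 31.3 CPM in control total mRNA, 35.05, 38.7 and 30.4 CPM with LPS and 26.3, 32.6 and 25.9 CPM with LPS and torin1. Its polysome-associated levels were 29.2, 36.9 and 36.2 CPM, 39.6, 39.3 and 39.8 CPM, and 33.7, 32.6 and 35.9 CPM. The groups of Pdk3 overlapped in total mRNA, while on polysomes the 3 LPS libraries were above the other 6. Pdk3 was not called with LPS in total mRNA (log2 fold change 0.11, SE 0.13), and in polysome-associated mRNA it was not called either (0.21, SE 0.14, adjusted p = 0.269, edgeR's quasi-likelihood test with Benjamini-Hochberg adjustment). There it was called with the block (0.203), with DESeq2 and its size factors, and without experiment 2 (adjusted p between 0.194 and 0.760 over all alternatives), and it turned to −0.14 with total counts. With torin1 it fell by a log2 fold change of −0.30 in total mRNA (SE 0.13, adjusted p = 0.104, same test), a call lost without experiment 1 (−0.24, adjusted p between 0.104 and 0.348 over the 3 fits).

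Pdp1 had 14.003, 16.3 and 13.5 CPM in control total mRNA, 8.21, 11.2 and 6.76 CPM with LPS and 14.4, 20.6 and 15.8 CPM with LPS and torin1. Among polysome-associated mRNA its values were 9.59, 12.5 and 11.2 CPM in control, 4.29, 5.85 and 5.73 CPM with LPS and 13.2, 15.9 and 17.8 CPM with LPS and torin1. All LPS libraries were below all control and all torin1 libraries in both RNA types, and in polysome-associated mRNA the torin1 libraries were also above all control libraries. With LPS Pdp1 fell by a log2 fold change of −0.74 (SE 0.20) in total and of −1.07 (SE 0.20) in polysome-associated mRNA (adjusted p = 0.0122 and 0.00226 by edgeR's quasi-likelihood test with Benjamini-Hochberg adjustment). With torin1 it rose by 0.96 (SE 0.20) and by 1.56 (SE 0.20; adjusted p = 0.00665 and 0.00130, same test). All 4 calls were kept without each of the 3 experiments.

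Pcx encodes pyruvate carboxylase, which makes oxaloacetate from pyruvate. It had 5.68, 6.38 and 9.89 CPM in control total mRNA, 3.06, 6.27 and 6.85 CPM with LPS and 6.68, 9.51 and 10.2 CPM with LPS and torin1. On polysomes its values were 8.39, 5.29 and 8.63 CPM, 4.39, 7.12 and 5.94 CPM, and 7.95, 11.9 and 9.59 CPM. The control and LPS groups overlapped in both RNA types, and the torin1 libraries were above all LPS libraries in polysome-associated mRNA only. With LPS Pcx was not called (−0.43, SE 0.31, in total mRNA, adjusted p = 0.285 by edgeR's quasi-likelihood test with Benjamini-Hochberg adjustment) except with the block (adjusted p = 0.0522) and with total counts (0.0534; between 0.0522 and 0.488 over all alternatives). In polysome-associated mRNA it was called with LPS with total counts (−0.70) and without experiment 2 (−0.72). With torin1 it rose by 0.70 (SE 0.31) in total and by 0.75 (SE 0.26) in polysome-associated mRNA (adjusted p = 0.121 and 0.0826, same test). The call in total mRNA was lost without experiment 2 (0.76, adjusted p between 0.133 and 0.258 over the 3 fits), and that in polysome-associated mRNA without experiment 1 (0.72) and without experiment 3 (0.80, adjusted p between 0.0483 and 0.349 over the 3 fits).

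**Figure D3:**
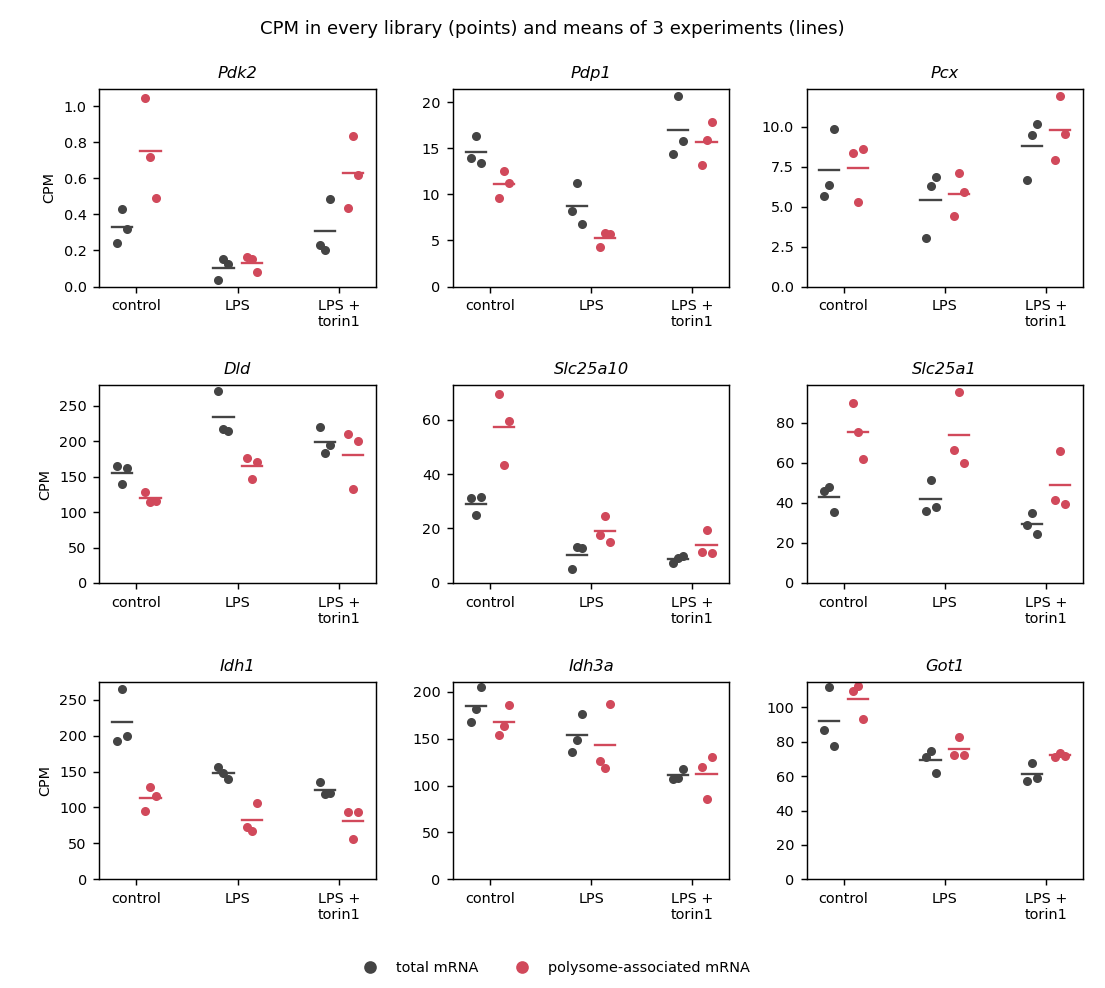
CPM in every library (points, 1 per experiment) of Pdk2, Pdp1, Pcx, Dld, Slc25a10, Slc25a1, Idh1, Idh3a and Got1 in control, LPS and LPS with torin1 cells, for total and polysome-associated mRNA. Pdp1 in polysome-associated mRNA lies between 4.29 and 5.85 CPM with LPS, and between 9.59 and 17.8 CPM in the 6 other libraries.

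The promoters of Pdk2 and Dld are shown, since these genes fell and rose most with LPS in polysome-associated mRNA. The 250 bases before the start of each, from RefSeq on GRCm38.p6, lie at chr11:95041372-95041621 and chr12:31351472-31351721, both on the minus strand, upstream of the annotated exons of the gene. Windows were found for 31 of the 34 genes. Capitals mark matches on either strand to an E-box (CACGTG), a GC box (GGGCGG or CCGCCC) or a CCAAT box (CCAAT or ATTGG). That of Pdk2 holds an E-box 126 bases before the start and 3 CCAAT boxes between it and the start, and that of Dld a CCAAT box at 78 bases.
Pdk2: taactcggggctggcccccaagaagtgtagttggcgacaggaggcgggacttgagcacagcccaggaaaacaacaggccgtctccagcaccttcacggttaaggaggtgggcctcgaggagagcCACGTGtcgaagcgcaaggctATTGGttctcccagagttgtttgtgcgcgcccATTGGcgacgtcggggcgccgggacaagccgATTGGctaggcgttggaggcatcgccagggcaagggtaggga
Dld: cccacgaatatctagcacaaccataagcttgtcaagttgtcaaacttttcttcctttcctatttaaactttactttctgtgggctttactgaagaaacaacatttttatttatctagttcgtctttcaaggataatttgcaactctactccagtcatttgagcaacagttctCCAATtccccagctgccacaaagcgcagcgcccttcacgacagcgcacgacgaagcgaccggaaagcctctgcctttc

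Of the 12 enzymes of the cycle itself, 3 were called with LPS in total mRNA (1 higher, 2 lower; all genes 66.5%) and 1, Idh2, lower in polysome-associated mRNA (all genes called 55.1%). With torin1 6 were lower in total mRNA (all genes 26.4%) and 0 were called in polysome-associated mRNA (all genes 38.4%) by edgeR, also at an unadjusted p under 0.05 (DESeq2 called none of them). Cs encodes citrate synthase, which opens the cycle, and was at 461 ± 24.9 CPM in control total mRNA, 448 ± 44.8 CPM with LPS and 418 ± 11.3 CPM with LPS and torin1. Its log2 fold change was −0.04 with LPS and −0.10 with torin1, and it was not called. Among the others not called with LPS in total mRNA, log2 fold changes were 0.06 for Idh3b and −0.04 for Idh3g, subunits of the NAD-dependent isocitrate dehydrogenase, −0.08 for Ogdh, the E1 part of the oxoglutarate dehydrogenase complex, 0.02 for Suclg1, a succinyl-CoA ligase subunit, and −0.16 for Fh1, fumarase. Fh1 was called there with the block (adjusted p = 0.204, edgeR), with total counts and without experiment 1 (−0.24; adjusted p between 0.00182 and 0.805 over all alternatives).

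Idh1 and Idh2 encode the cytosolic and the mitochondrial NADP-dependent isocitrate dehydrogenases. Idh1 had 193, 265 and 200.04 CPM in control total mRNA, 156, 148 and 139 CPM with LPS and 135.6, 118.6 and 119.7 CPM with LPS and torin1. Its polysome-associated levels were 94.6, 127.9 and 115.9 CPM, 72.9, 67.1 and 106.6 CPM, and 93.2, 55.5 and 93.4 CPM. In total mRNA the 3 groups of Idh1 did not overlap, with control highest and torin1 lowest, while in polysome-associated mRNA the LPS library of experiment 3 lay among the controls. With LPS Idh1 fell by a log2 fold change of −0.57 (SE 0.13) in total and of −0.46 (SE 0.24) in polysome-associated mRNA (adjusted p = 0.00505 and 0.173 by edgeR's quasi-likelihood test with Benjamini-Hochberg adjustment). The call in polysome-associated mRNA was lost without experiment 1 (−0.49) and without experiment 2 (−0.23, adjusted p between 0.168 and 0.386 over the 3 fits). With torin1 Idh1 fell by a log2 fold change of −0.25 in total mRNA (SE 0.13, adjusted p = 0.185, same test), a call lost without experiment 2 (−0.21) and without experiment 3 (−0.26, adjusted p between 0.244 and 0.406 over the 3 fits) and with total counts.

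Idh2 had 179, 209 and 194 CPM in control total mRNA, 134.999, 163 and 157 CPM with LPS and 139, 173 and 151 CPM with LPS and torin1. Among polysome-associated mRNA its values were 214, 178 and 207 CPM, 140.4, 147 and 162 CPM, and 144, 159 and 159.8 CPM. The control libraries were above all others in both RNA types, and the groups with and without torin1 overlapped. Idh2 fell with LPS by a log2 fold change of −0.35 (SE 0.12) in total and of −0.42 (SE 0.14) in polysome-associated mRNA (adjusted p = 0.0316 and 0.0382 by edgeR's quasi-likelihood test with Benjamini-Hochberg adjustment). The call in polysome-associated mRNA was lost without experiment 1 (−0.32, adjusted p between 0.0285 and 0.331 over the 3 fits). Per length, Idh1 and Idh2 were alike in control total mRNA (79.1 ± 14.3 and 75.0 ± 5.86 CPM per kb).

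Idh3a encodes the catalytic subunit of the NAD-dependent isocitrate dehydrogenase. It had 168, 182 and 205 CPM in control total mRNA, 135.8, 149 and 176 CPM with LPS and 107.3, 107.9 and 117.9 CPM with LPS and torin1. On polysomes its values were 154, 164 and 186 CPM, 126.0, 118.4 and 187 CPM, and 120.2, 85.9 and 130.5 CPM. In total mRNA the torin1 libraries were below the other 6, and the LPS library of experiment 3 lay among the controls. Idh3a fell with LPS by a log2 fold change of −0.27 in total mRNA (SE 0.12) and with torin1 of −0.47 (SE 0.12), with adjusted p = 0.0942 and 0.0160 by edgeR's quasi-likelihood test with Benjamini-Hochberg adjustment. The call with LPS was lost without experiment 2 (−0.26, adjusted p between 0.131 and 0.265 over the 3 fits). In polysome-associated mRNA Idh3a was called in both comparisons with the block (log2 fold changes −0.22 and −0.36, adjusted p = 0.460 and 0.289 without and 0.202 and 0.120 with it, edgeR's quasi-likelihood test with Benjamini-Hochberg adjustment), and with LPS also with total counts (−0.57).

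Dlst encodes the E2 part of the oxoglutarate dehydrogenase complex. It had 218, 237 and 236 CPM in control total mRNA, 251, 257 and 266 CPM with LPS and 260.1, 261 and 251 CPM with LPS and torin1. Its polysome-associated levels were 211, 193 and 204 CPM, 186, 201 and 230.3 CPM, and 218, 212 and 226 CPM. The LPS libraries were above the controls in total mRNA only. There Dlst rose by 0.16 (SE 0.09, adjusted p = 0.146 by edgeR's quasi-likelihood test with Benjamini-Hochberg adjustment), and it turned to −0.20 with total counts, where the median gene was at −0.38. The call was lost without experiment 1 (0.16) and without experiment 3 (0.16, adjusted p between 0.226 and 0.392 over the 3 fits).

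Suclg2 and Sucla2 encode the alternative subunits that make succinyl-CoA ligase specific for GDP or for ADP. Suclg2 had 92.1, 94.7 and 88.9 CPM in control total mRNA, 87.2, 86.4 and 85.8 CPM with LPS and 63.2, 72.7 and 71.6 CPM with LPS and torin1, and in polysome-associated mRNA 52.4, 55.5 and 60.9 CPM, 51.1, 45.4 and 64.2 CPM, and 54.4, 42.1 and 58.6 CPM. The torin1 libraries of total mRNA were below the other 6. Sucla2 had 85.2, 84.7 and 93.4 CPM in control total mRNA, 98.4, 80.1 and 87.6 CPM with LPS and 73.7, 77.5 and 87.9 CPM with LPS and torin1, and in polysome-associated mRNA 48.4, 56.1 and 68.3 CPM, 58.4, 52.0 and 75.4 CPM, and 67.3, 47.4 and 76.6 CPM. Its groups overlapped in both RNA types. With torin1 Suclg2 fell by a log2 fold change of −0.32 in total mRNA (SE 0.09, adjusted p = 0.0212 by edgeR's quasi-likelihood test with Benjamini-Hochberg adjustment), a call kept without each experiment, while Sucla2, at −0.15 (SE 0.11), was called only with the block (adjusted p = 0.321 without and 0.220 with it, edgeR). Whether the changes of Suclg2 and Sucla2 differ was not tested.

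Of the other called enzymes of the cycle, Idh3b had 111.7, 131.3 and 130.1 CPM in control total mRNA, 124.7, 133 and 133 CPM with LPS and 109.8, 112.8 and 121.1 CPM with LPS and torin1, and on polysomes 147, 129.2 and 158 CPM, 125.3, 134 and 143 CPM, and 114.6, 135.7 and 122.9 CPM. Suclg1 had 81.9, 96.2 and 89.1 CPM in control total mRNA, 87.2, 88.5 and 95.9 CPM with LPS and 76.0, 81.0 and 81.3 CPM with LPS and torin1, and on polysomes 79.4, 86.4 and 77.6 CPM, 66.7, 74.6 and 85.6 CPM, and 72.1, 67.3 and 71.0 CPM. In total mRNA the torin1 libraries of both were below all LPS libraries. Ogdh had 195, 182 and 233 CPM in control total mRNA, 163, 174 and 241 CPM with LPS and 147, 161 and 164 CPM with LPS and torin1, and on polysomes 242, 184 and 238 CPM, 173, 165 and 245 CPM, and 165, 157 and 185 CPM. Fh1 had 146, 166 and 159 CPM in control total mRNA, 148, 126.6 and 146 CPM with LPS and 105.5, 119.9 and 132 CPM with LPS and torin1, and on polysomes 123.6, 117.2 and 134 CPM, 120.1, 89.6 and 141 CPM, and 119.6, 79.8 and 117.7 CPM. The torin1 and LPS groups of these overlapped. The calls of all 4 with torin1 in total mRNA were weak. Log2 fold changes were −0.18 for Idh3b, −0.19 for Suclg1, −0.29 for Ogdh and −0.23 for Fh1, and the 4 were called at an adjusted p of 0.188, 0.159, 0.187 and 0.149 by edgeR's quasi-likelihood test with Benjamini-Hochberg adjustment. That of Idh3b was lost without each of the 3 experiments (−0.21 to −0.16), those of Suclg1 and Fh1 without experiment 1 (−0.19 and −0.11) and without experiment 3 (−0.16 and −0.29), and that of Ogdh without experiment 3 (−0.13). With total counts all 4 calls were lost. Idh3b is uncertain, though only 0.146% of its exon bases lie opposite another gene, Nop56.

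Mdh1 and Mdh2 encode the cytosolic and the mitochondrial malate dehydrogenases. Mdh1 had 255, 293 and 235 CPM in control total mRNA, 241, 209 and 196 CPM with LPS and 189, 216 and 191 CPM with LPS and torin1. Among polysome-associated mRNA its values were 265, 285 and 239 CPM, 216, 185 and 224 CPM, and 231, 169 and 219 CPM. The LPS and control groups of Mdh1 overlapped in total mRNA and did not in polysome-associated mRNA. Mdh1 fell with LPS by a log2 fold change of −0.28 (SE 0.12) and of −0.34 (SE 0.16; adjusted p = 0.0812 and 0.138 by edgeR's quasi-likelihood test with Benjamini-Hochberg adjustment). The call in total mRNA was lost without experiment 2 (−0.17, adjusted p between 0.0824 and 0.368 over the 3 fits), and that in polysome-associated mRNA without each of the 3 experiments (−0.45 to −0.20, adjusted p between 0.267 and 0.372). Mdh1 is uncertain, since 2.03% of its exon bases lie opposite Wdpcp. Mdh2 had 192, 224 and 249 CPM in control total mRNA, 196, 239 and 296 CPM with LPS and 219.7, 239 and 264 CPM with LPS and torin1, and in polysome-associated mRNA 280.4, 248 and 271 CPM, 222, 238 and 297 CPM, and 239.5, 251 and 252 CPM. The groups of Mdh2 overlapped throughout, and with LPS in total mRNA it was called with the block (0.14, SE 0.16, adjusted p = 0.507 without and 0.219 with it, edgeR) and turned to −0.22 with total counts. In polysome-associated mRNA it was called with LPS with total counts only (−0.43).

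The 6 cytosolic, malate and glutamate enzymes (Idh1, Mdh1, Me2, Glud1, Got1 and Got2) summed to 1296 ± 39.5 CPM in control total mRNA, 1079.7 ± 40.1 CPM with LPS and 986 ± 9.93 CPM with LPS and torin1, with no overlap between the 3 groups. On polysomes their sums were 1022 ± 28.1, 858 ± 126 and 898 ± 112.6 CPM. There the LPS group overlapped both others, all control libraries were above all torin1 libraries, and torin1 lay above LPS on average. With LPS 5 of the 6 were lower in total mRNA, beside 34.3% of all genes, as were 3 on polysomes, beside 28.7%. With torin1 3 were lower in total mRNA (all genes 26.4%) and 0 were called in polysome-associated mRNA (all genes 38.4%) by edgeR, also at an unadjusted p under 0.05 (DESeq2 called none of them). Glud1 encodes glutamate dehydrogenase, which feeds glutamate into the cycle. Glud1 had 371, 342 and 416 CPM in control total mRNA, 314, 285 and 351 CPM with LPS and 336, 324 and 362 CPM with LPS and torin1, and on polysomes 242, 206 and 295 CPM, 218, 166 and 279 CPM, and 295, 238 and 338 CPM. The control and LPS groups of Glud1 overlapped. With LPS in total mRNA it fell by a log2 fold change of −0.25 (SE 0.11, adjusted p = 0.101 by edgeR's quasi-likelihood test with Benjamini-Hochberg adjustment), a call lost without experiment 1 (−0.24, adjusted p between 0.170 and 0.288 over the 3 fits). On polysomes with torin1 Glud1 was not called (0.39, SE 0.22, adjusted p = 0.262 by edgeR). It was called there with the block (0.0314), with total counts, with the filter of at least 10 counts and without experiment 2 (adjusted p between 0.0314 and 0.616 over all alternatives).

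Me2 encodes a mitochondrial malic enzyme that makes pyruvate from malate. Me2 had 147, 125.2 and 141 CPM in control total mRNA, 130.9, 118.8 and 120.0 CPM with LPS and 103.8, 96.6 and 105.2 CPM with LPS and torin1, and on polysomes 117.2, 111.4 and 133 CPM, 105.7, 98.2 and 125.5 CPM, and 109.3, 90.8 and 113.4 CPM. The torin1 libraries of total mRNA were below all others, and the control and LPS groups overlapped. Me2 fell with LPS by a log2 fold change of −0.16 (SE 0.10) and with torin1 of −0.27 (SE 0.10; adjusted p = 0.203 and 0.0580, same test), and its call with LPS was lost without experiment 1 (−0.14) and without experiment 3 (−0.13, adjusted p between 0.206 and 0.549 over the 3 fits) and with DESeq2.

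Got1 and Got2 encode the cytosolic and the mitochondrial aspartate aminotransferases of the malate-aspartate shuttle. Got1 had 86.7, 111.965 and 77.8 CPM in control total mRNA, 71.2, 74.9 and 61.7 CPM with LPS and 57.2, 67.4 and 58.7 CPM with LPS and torin1. On polysomes its values were 109.5, 112.2 and 93.0 CPM, 72.1, 82.8 and 72.5 CPM, and 71.0, 73.3 and 71.8 CPM. The control libraries were above all others in both RNA types. With LPS Got1 fell by a log2 fold change of −0.41 (SE 0.14) in total and of −0.47 (SE 0.13) in polysome-associated mRNA (adjusted p = 0.0365 and 0.0203 by edgeR's quasi-likelihood test with Benjamini-Hochberg adjustment), and both calls were kept without each experiment. With torin1 it was called only with the block (−0.18 in total mRNA, SE 0.14, adjusted p = 0.373 without and 0.140 with it, edgeR). Got2 had 205, 199.6 and 223 CPM in control total mRNA, 190.0, 199 and 234 CPM with LPS and 156, 161 and 160.1 CPM with LPS and torin1, and in polysome-associated mRNA 199.6, 149 and 169.7 CPM, 149, 147 and 186 CPM, and 149, 142 and 140.1 CPM. The torin1 libraries of Got2 in total mRNA were below the other 6, and the control and LPS libraries overlapped. With torin1 Got2 fell by a log2 fold change of −0.38 in total mRNA (SE 0.10, adjusted p = 0.0195, same test), a call kept without each experiment. Got2 is uncertain, since 9% of its exon bases lie opposite Gm45760 and a pseudogene, Got2-ps1, is annotated.

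Of the 5 carriers, 3 were called with LPS in total mRNA (1 higher, 2 lower) and 2 in polysome-associated mRNA (1 higher, 1 lower), beside 66.5% and 55.1% of all genes. With torin1 4 were called in total mRNA (1 higher, 3 lower) and 2, both lower, in polysome-associated mRNA, beside 53.7% and 38.4% of all genes. Slc25a10, the dicarboxylate carrier that exchanges malate and succinate for phosphate, fell most of them with LPS. It had 31.2, 24.8 and 31.4 CPM in control total mRNA, 5.30, 13.02 and 12.8 CPM with LPS and 7.21, 9.18 and 9.93 CPM with LPS and torin1. Its polysome-associated levels were 69.4, 43.3 and 59.3 CPM, 17.5, 24.7 and 15.1 CPM, and 11.5, 19.3 and 10.8 CPM. All controls were above all other libraries in both RNA types, and the groups with and without torin1 overlapped. With LPS Slc25a10 fell by a log2 fold change of −1.49 (SE 0.29) in total and of −1.59 (SE 0.28) in polysome-associated mRNA (adjusted p = 0.00182 and 0.00157 by edgeR's quasi-likelihood test with Benjamini-Hochberg adjustment), and both calls were kept without each experiment. With torin1 it was not called in polysome-associated mRNA (−0.46, SE 0.27, adjusted p = 0.290 by edgeR) except with the block (0.233) and without experiment 2 (0.0516; between 0.0516 and 0.626 over all alternatives). In total mRNA it was called with torin1 without experiment 1 only (−0.43). It is uncertain, since 6.6% of its exon bases lie opposite the antisense gene Gm11788.

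Slc25a1, the citrate carrier, exports citrate for lipid synthesis. It had 45.9, 48.03 and 35.6 CPM in control total mRNA, 35.8, 51.7 and 38.0 CPM with LPS and 29.1, 35.2 and 24.7 CPM with LPS and torin1. Among polysome-associated mRNA its values were 89.8, 75.4 and 62.1 CPM, 66.3, 95.3 and 59.9 CPM, and 41.3, 65.9 and 39.4 CPM. The control and LPS groups overlapped, and the torin1 libraries were below all LPS libraries in total mRNA only. With LPS the log2 fold change of Slc25a1 was −0.05 (SE 0.18) in total and −0.04 (SE 0.25) in polysome-associated mRNA, and it was not called. With torin1 it fell by a log2 fold change of −0.50 (SE 0.18) and of −0.60 (SE 0.25; adjusted p = 0.0608 and 0.136 by edgeR's quasi-likelihood test with Benjamini-Hochberg adjustment). The call in polysome-associated mRNA was lost without experiment 1 (−0.56) and without experiment 3 (−0.58, adjusted p between 0.0451 and 0.425 over the 3 fits).

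The promoters of Slc25a10 and Slc25a1 are shown, since these carriers had the largest falls with LPS and with torin1. The windows from RefSeq (GRCm38.p6) lie at chr11:120491587-120491836 on the plus strand and chr16:17928220-17928469 on the minus strand, and the same capitals are used. That of Slc25a10 holds none of these letters and overlaps an exon of Gm11788 on the other strand. That of Slc25a1 holds an E-box 239 bases before the start, and a CCAAT box and 4 GC boxes between it and the start.
Slc25a10: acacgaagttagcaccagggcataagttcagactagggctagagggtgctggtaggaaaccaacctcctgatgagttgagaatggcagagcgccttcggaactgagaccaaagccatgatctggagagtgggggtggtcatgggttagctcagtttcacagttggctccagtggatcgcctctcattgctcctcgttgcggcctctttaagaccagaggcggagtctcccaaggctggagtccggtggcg
Slc25a1: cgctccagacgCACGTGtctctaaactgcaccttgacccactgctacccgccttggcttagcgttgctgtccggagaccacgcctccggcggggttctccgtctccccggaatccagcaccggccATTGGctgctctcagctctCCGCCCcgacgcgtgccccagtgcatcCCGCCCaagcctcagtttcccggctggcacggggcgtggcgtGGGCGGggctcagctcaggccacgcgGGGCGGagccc

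Slc25a11, the oxoglutarate carrier, and Slc25a13, an aspartate-glutamate carrier, both serve the malate-aspartate shuttle. Slc25a11 had 89.8, 108.6 and 84.5 CPM in control total mRNA, 87.7, 90.1 and 86.3 CPM with LPS and 103.7, 104.9 and 94.7 CPM with LPS and torin1, and in polysome-associated mRNA 176, 157 and 157 CPM, 171, 164 and 147 CPM, and 180.2, 176 and 166 CPM. In total mRNA its torin1 libraries were above all LPS libraries and overlapped the controls. With torin1 Slc25a11 rose by 0.20 in total mRNA (SE 0.11, adjusted p = 0.195 by edgeR's quasi-likelihood test with Benjamini-Hochberg adjustment), a call lost without each of the 3 experiments (0.18 to 0.23, adjusted p between 0.284 and 0.423) and with DESeq2. It is uncertain, since 8.92% of its exon bases lie opposite Rnf167. Slc25a13 had 84.9, 99.9 and 80.3 CPM in control total mRNA, 75.7, 77.1 and 72.4 CPM with LPS and 56.7, 62.9 and 56.7 CPM with LPS and torin1, and in polysome-associated mRNA 86.4, 92.8 and 93.4 CPM, 80.9, 73.4 and 86.3 CPM, and 68.4, 59.1 and 63.4 CPM. Its torin1 libraries were below all others in both RNA types. Slc25a13 fell with LPS by a log2 fold change of −0.24 in total mRNA (SE 0.10), and with torin1 of −0.35 (SE 0.10) in total and of −0.33 (SE 0.13) in polysome-associated mRNA (adjusted p = 0.0865, 0.0279 and 0.114, same test). The call with LPS was lost without experiment 2 (−0.16, adjusted p between 0.174 and 0.293 over the 3 fits), and that with torin1 in polysome-associated mRNA without experiment 1 (−0.38) and without experiment 3 (−0.26, adjusted p between 0.127 and 0.622).

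Slc25a3, the phosphate carrier, brings in the phosphate used to make ATP. It had 319, 327 and 299 CPM in control total mRNA, 379.7, 349 and 362 CPM with LPS and 322, 314 and 301 CPM with LPS and torin1. On polysomes its values were 337, 356 and 335 CPM, 440.4, 418 and 436 CPM, and 402, 403 and 389.6 CPM. The LPS libraries were above all others in both RNA types. With LPS Slc25a3 rose by 0.21 (SE 0.09) in total and by 0.33 (SE 0.12) in polysome-associated mRNA (adjusted p = 0.0838 and 0.0628 by edgeR's quasi-likelihood test with Benjamini-Hochberg adjustment), and with total counts these changes turned to −0.16 and −0.0229, where the median gene was at −0.38 in both. The call in total mRNA was lost without experiment 3 (0.17, adjusted p between 0.109 and 0.356 over the 3 fits), and that in polysome-associated mRNA without experiment 1 (0.31) and without experiment 3 (0.31, adjusted p between 0.0485 and 0.387). With torin1 it fell by a log2 fold change of −0.22 in total mRNA (SE 0.09, adjusted p = 0.0924, same test), a call lost without experiment 3 (−0.20, adjusted p between 0.160 and 0.375 over the 3 fits).

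The log2 ratio of polysome-associated to total mRNA in a lysate describes how far an mRNA sat on heavy polysomes relative to the bulk of genes. In control cells it ran from −0.95 ± 0.15 (mean ± SD, n = 3) for Idh1 to 1.11 ± 0.80 for Pdk2, with a median of 0.02 for the 34 genes and 0.02 for all genes. After Pdk2, whose counts are few, the highest were the carriers Slc25a10 (0.96 ± 0.18), Slc25a1 (0.81 ± 0.16) and Slc25a11 (0.80 ± 0.23), with Mpc1 at 0.79 ± 0.25. The lowest after Idh1 were Suclg2 (−0.71 ± 0.15), Sucla2 (−0.62 ± 0.19), Glud1 (−0.61 ± 0.12) and Pdha1 (−0.53 ± 0.02). With LPS the medians were −0.04 for the 34 genes and 0.03 for all genes, and with LPS and torin1 0.01 and −0.01. Ratios were positive for 18 of the 34 genes in control, 15 with LPS and 18 with LPS and torin1.

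**Figure D4:**
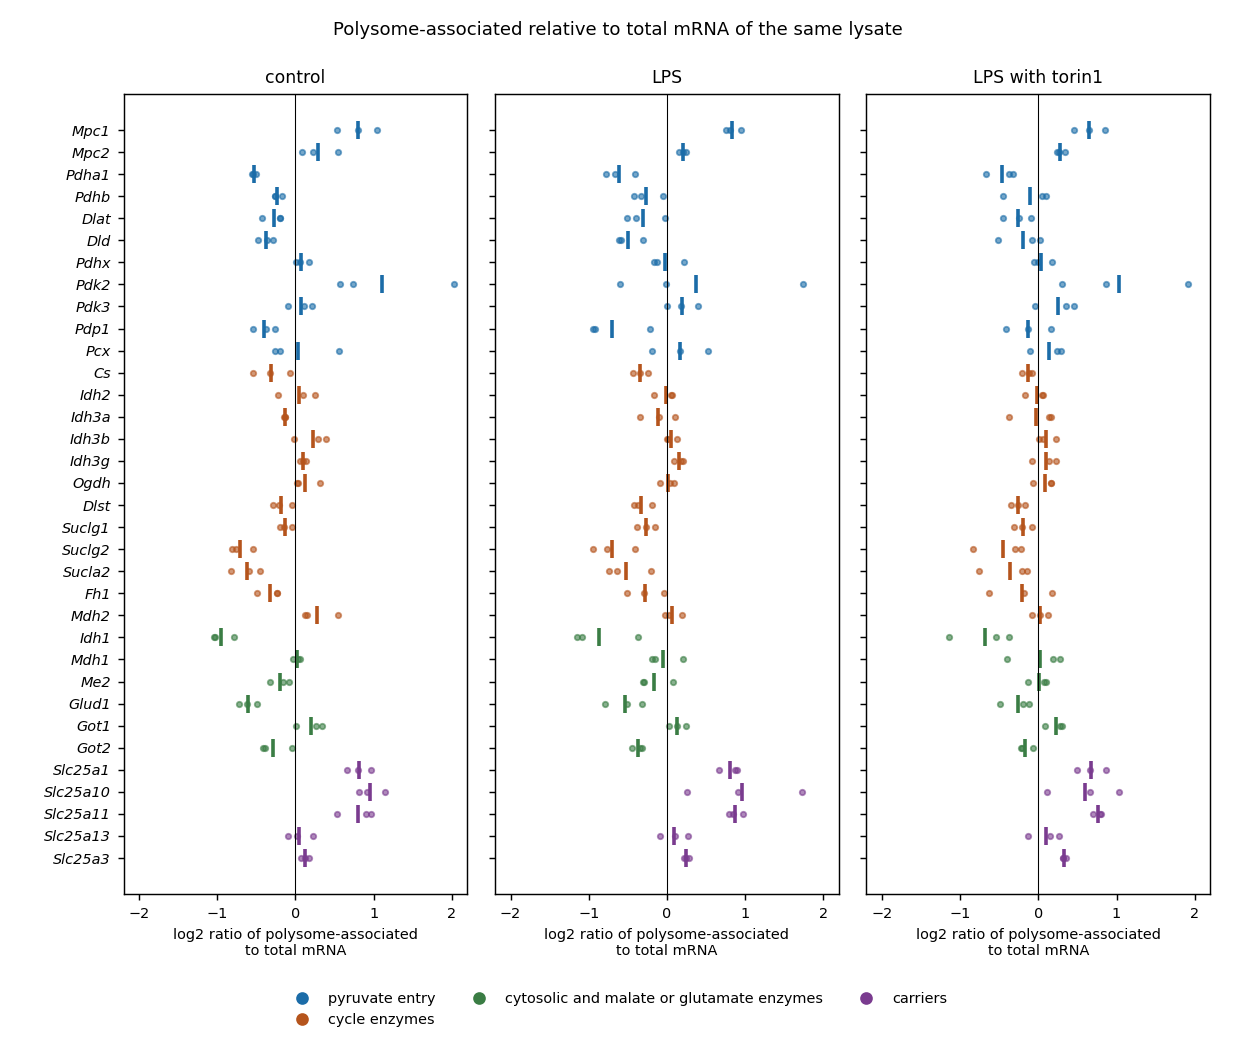
Log2 ratio of polysome-associated to total mRNA of the 34 genes in each of the 9 lysates (points) by treatment. The order of the genes, from Idh1 (−0.95 on average in control) to carriers such as Slc25a10 (0.96), is broader than the shifts of most genes between treatments, and Pdk2 spreads most between lysates (SD 0.80 in control and 1.22 with LPS).

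A change of translation efficiency (the term for a treatment acting differently on the RNA types, fitted over all 18 libraries) was called for 0 of the 34 genes in both comparisons, beside 0% of all genes with LPS and 0% with torin1 (edgeR, FDR of 0.25 and a fold of at least 1.2). At an unadjusted p under 0.05 edgeR had 0 of the 34 genes and 44 of all genes with LPS, and 0 and 110 with torin1. That fit took both libraries of a lysate as independent. Over all 11243 genes a p under 0.05 was rarer than a test without any effect would give. Its 0 calls therefore do not show that translation efficiency was unchanged. With the lysate as a block, the smallest adjusted p among the 34 was 0.99982 with LPS and 0.993 with torin1 (edgeR's quasi-likelihood test). DESeq2 called 0 of 34 genes with LPS and 0 of the 17 that its filter on mean counts left with an adjusted p with torin1 (Pdk2 and Pdp1 not among them), with 1 of all 11243 genes and 13 of the 2524 so left, and an analysis of partial variance written after the description of anota2seq called 0 of the 34, with 10 and 21 of all genes. At an unadjusted p under 0.05 the latter had Pdk2, Pdp1 and Glud1 with LPS and Pdk2 and Pdp1 with torin1, beside 714 and 696 of all genes. The slope of Glud1, 2.34, was above the upper limit of 2 set for slopes in that analysis. Interaction terms of Pdp1 were −0.32 (SE 0.28) with LPS and 0.58 (SE 0.28) with torin1, and those of Pdk2 −0.86 (SE 0.78) and 0.73 (SE 0.79). The medians of the 34 genes were −0.03 with LPS and 0.07 with torin1, beside 0.00 and −0.02 for all genes. With torin1 26 of the 34 terms were positive, beside 5146 of the 11243 of all genes, namely 10 of 11 in pyruvate entry, 9 of 12 in the cycle, all 6 of the cytosolic, malate and glutamate enzymes (median 0.19) and 1 of 5 carriers (median −0.11). Of the other pathway genes 22 of 32 were positive. In experiments 1, 2 and 3 the medians of the 34 were 0.21, 0.02 and 0.02, beside 0.02, −0.05 and −0.02 for all genes. Experiment 1 carried most of this also in the 6 enzymes (0.34, 0.09 and 0.02), the cycle (0.21, 0.01 and −0.00) and the carriers (−0.18, −0.00 and −0.01). In pyruvate entry the experiments lay closer together (0.17, 0.07 and 0.09).

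Of 36 other genes of these pathways looked at, 32 were in the table (Ldhb, Pdk4, Me3 and Acod1 were not). With LPS 8 were higher and 10 lower in total mRNA (all genes 32.2% and 34.3%), and 3 higher and 7 lower in polysome-associated mRNA (26.4% and 28.7%). With torin1 3 were higher and 17 lower in total mRNA (all genes 27.3% and 26.4%), and 3 higher and 11 lower in polysome-associated mRNA (20.3% and 18.2%). Their medians in total mRNA were −0.03 with LPS and −0.20 with torin1. Among those with the largest rise with LPS in total mRNA were Slc25a22, a glutamate carrier (1.22, SE 0.24), Slc16a3, a lactate exporter (0.63, SE 0.17), and Slc38a1, a glutamine transporter (0.38, SE 0.11). The largest falls were those of Lipt2, an enzyme of lipoate attachment (−1.08, SE 0.30), Glul, glutamine synthetase (−1.01, SE 0.14), and Pdk1, another pyruvate dehydrogenase kinase (−0.95, SE 0.13). In polysome-associated mRNA Slc25a22 rose by 1.00 (SE 0.36), Slc38a1 by 0.36 (SE 0.16) and Slc25a20, the carnitine carrier, by 0.35 (SE 0.14), and Lipt2, Glul and Pdk1 fell (−1.04, SE 0.28; −1.02, SE 0.20; −0.93, SE 0.16).

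With torin1 the largest rises among these other genes in total mRNA were those of Pdpr, a regulator of the phosphatase that holds Pdp1 (0.65, SE 0.20), and Aco1, cytosolic aconitase (0.26, SE 0.09). The largest falls were those of Slc16a3 (−1.37, SE 0.17), Aldh18a1, an enzyme of proline synthesis from glutamate (−1.26, SE 0.15), and Slc16a1, a carrier of lactate and pyruvate (−1.17, SE 0.13). In polysome-associated mRNA Pdpr rose by 0.82 (SE 0.28), Lipt2 by 0.55 (SE 0.28) and Aco1 by 0.42 (SE 0.15), and Slc16a3, Aldh18a1 and Slc25a22 fell (−1.60, SE 0.25; −1.36, SE 0.24; −1.21, SE 0.36). Pdpr thus lay beside Pdp1, with falls with LPS (−0.78, SE 0.20, in total mRNA) and rises with torin1. Pdk1 fell with LPS and again with torin1 (−0.99, SE 0.13, in total mRNA), where Pdk2 rose. Pdpr and Glul are uncertain, since 3.36% and 3.49% of their exon bases overlap exons of other genes (9430091E24Rik for Pdpr; Teddm2 and Mir8114 for Glul).

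The same letters were looked for in all 27025 promoter windows of the RefSeq table. A GC box was in 20 of the 31 windows of the 34 genes (64.5%), in 32.9% of all windows and in 59.8% of the 8568 windows of genes of the count table. A CCAAT box was in 19 (61.3%), in 34.5% and in 37.2%. An E-box was in 4 (12.9%), those of Pdk2, Pcx, Slc25a1 and Slc25a13, in 6.05% and in 8.74%. Called genes among these 4 and among the 27 with a window and no E-box numbered 2 and 10 with LPS in total mRNA, 1 and 7 with LPS on polysomes, 4 and 14 with torin1 in total mRNA, and 4 (2 higher, 2 lower) and 0 with torin1 on polysomes, the last being noticed after the values were seen. The gene of the list that was also called there, Pdp1, had the smallest adjusted p and no window. By the other motifs, called genes there were 2 of 20 with and 2 of 11 without a GC box, and 4 of 19 with and 0 of 12 without a CCAAT box. Among all genes with a window the shares called there were 37.9% with and 39.6% without a GC box. With and without a CCAAT box they were 39% and 38.3%. Over all genes of the table with a window, the shares called of the 749 with an E-box and the 7819 without were, in the same order, 66.0% and 66.5%, 54.2% and 55.4%, 57.3% and 53.9%, and 43.3% and 38.1%. With the block 12 of the 34 genes and 49.7% of all genes were called with torin1 on polysomes. All 4 genes with an E-box stayed called there, and none of the 7 genes gained, Slc25a10 among them, is 1 of these 4. Genes with a window and no E-box were thus also called, and the split was weaker. Of the 4 genes with an E-box, 3 were not called without experiment 1 or without experiment 3. A match is a run of letters and was not tested as a binding site.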

How the data were processed

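Total and heavy-polysome mRNA of 9 lysates was analysed, and libraries were grouped by the treatment, RNA type and replicate number of their labels. The authors made stranded, ribosomal RNA-depleted libraries, sequenced them paired-end, aligned reads to GRCm38 with Hisat2 in a nextflow pipeline left at its defaults and counted them per gene with featureCounts. The deposited values are raw counts of protein-coding genes with no 0 in any library (lowest count 1), with no normalization. The version of the Ensembl annotation, and what those defaults set for strands, are not given in the sources used here, so genes with antisense or pseudogene partners are called uncertain.

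The tools were edgeR (4.0.16), limma (3.58.1) and DESeq2 (1.42.0), under R (4.3.3). For levels, each RNA type's 9 libraries went into one model of the 3 treatments, without a block, normalized by TMM. The quasi-likelihood F test of edgeR was used, adjusted by Benjamini-Hochberg over 11243 genes and read at an FDR of 0.25. Standard errors are the log2 fold change over the square root of F. Translation efficiency was the interaction term over 18 libraries. The polysome to total ratio took log2 CPM with a pseudocount of 0.5. The scripts were tested on simulated data. Replicates of a group differed by more than counting noise (chi-squared per degree of freedom at least 26.3).

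The replicate number marks the independent experiment, and each lysate gave both libraries. Deviations from group means of same-numbered libraries correlated at 0.337 on average in total mRNA (lowest 0.149) and at 0.290 in polysome-associated mRNA (lowest −0.0918), against −0.167 and −0.143 for other numbers.

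The 34 genes and the gene lists were chosen with earlier results of these data known. Values in every library are given, per comparison of levels, for called genes whose sign agreed between the experiments, the 4 with the largest rise and the 4 with the largest fall, and for both partners of 6 paralogue pairs (Idh1 and Idh2, Mdh1 and Mdh2, Got1 and Got2, Suclg2 and Sucla2, Pdk2 and Pdk3, Mpc1 and Mpc2). Of the other pathway genes, the 3 with the largest called rise and fall are named, except for 1 result that is not reported here. Alternatives were DESeq2, its size factors in edgeR, the experiment (for translation efficiency, the lysate) as a block, an FDR of 0.05, at least 10 counts in every library (10314 genes), only the libraries of the treatments compared, each experiment left out, and, chosen after seeing the data, total count scaling. Anota2seq was not used here.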

Additional observations from a re-analysis of the deposited data

How the results depend on the processing

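At an FDR of 0.05 the counts of genes higher and lower among the 34 were 1 and 6 (LPS, total mRNA), 0 and 5 (LPS, polysome-associated), 1 and 5 (torin1, total) and 2 and 0 (torin1, polysome-associated), and all genes called numbered 5132, 3654, 3279 and 1557. With the experiment as a replicate block, 11 were lower with LPS and 5 higher and 7 lower with torin1 in polysome-associated mRNA. No call of the 34 genes was lost with the block, and its gains included Fh1 (LPS, total), Glud1, Pdhx and Slc25a13 (LPS, polysome-associated) and Glud1, Mpc2, Pdha1, Pdhx and Pdk3 (torin1, polysome-associated). With total count scaling the counts were 1 and 32 and 0 and 29 with LPS, and 10 lower with torin1 in total mRNA. With LPS 10 genes in total and 7 in polysome-associated mRNA reversed under it, and with torin1 4 in each. The called ones were, with LPS, Dlst (−0.20) and Slc25a3 (−0.16) in total and Slc25a3 (−0.0229) in polysome-associated mRNA. That scaling leaves out the TMM factors, and what sets the totals apart was not tested.

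With 1 experiment left out, the genes higher numbered 1 to 3 with LPS in total mRNA. This count is given without that of all genes in these fits and is not read as particular to the 34. In polysome-associated mRNA with LPS 0 to 3 were higher and 4 to 6 lower, with 3901 to 7251 of all genes called. With torin1 in total mRNA 2 to 3 were higher and 9 to 13 lower, with 3959 to 5385 of all genes called. In polysome-associated mRNA with torin1 0 to 4 were lower, with 1187 to 5182 of all genes called. For translation efficiency all genes called were 1 and 13 with DESeq2, 10 and 21 with the analysis of partial variance, and 0 and 25 with the lysate as a replicate block. The causes of these differences were not tested, beyond the fewer libraries of the fits that leave out an experiment. The remaining alternatives kept counts within 1.5 times. Of the 34 genes, the filter of at least 10 counts removes Pdk2 alone. DESeq2's filter on mean counts left only 17 of them with an adjusted p for translation efficiency with torin1.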
